A study of Mus musculus with 8 samples.

Results

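The measurements below are the Snhg11 sites in a deposited table of N6-methyladenosine (m6A) sites that differed between aged and young mouse cortex cells. Members were all sites whose deposited gene name is Snhg11, and they numbered 51 of 2055 listed sites, or 2.48% of the table. The listed sites had been selected on the authors' adjusted p and log2 ratio of mean C-to-U between the ages, so those measured values chose the members, and no listed adjusted p reaches 0.05. Only 3 of the 789 listed genes had more sites. The cells came from mice carrying APOBEC1-YTH, a cytidine deaminase joined to the m6A-binding YTH domain, which turns C next to a methylated A into U. That genotype is given for the aged libraries, and cells without the fusion were not analysed here. The aged group was 12 to 14 months old when tamoxifen began, received 20 mg/kg every 24 h for 5 days, and gave its cortex 7 days after the last dose. Its 8 libraries were 4 lanes of each of 2 sublibraries, and no label gives the number of mice or the promoter that drives the fusion. The young cells come from a companion series, and their genotype, age and preparation were not analysed here. A difference between the ages therefore cannot be told apart from a difference between the 2 series.

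Snhg11 is a small nucleolar RNA (snoRNA) host gene. Such genes are spliced to a long RNA while snoRNAs, which guide chemical modification of ribosomal and other RNAs, are cut out of their introns. The Snhg11 RNA is abundant in neurons and is usually described as noncoding. m6A is deposited by the METTL3-METTL14 enzyme, mostly at the A of the sequence DRACH, where D is A, G or T, R is A or G, and H is A, C or T.

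On chromosome 2 of mm10 the gene runs from 158375638 to 158386145 on the plus strand, and GENCODE M21 gives it 5 transcripts. The annotation puts 2 snoRNA genes inside it, Gm25187 at 158378222 to 158378354 and Gm25129 at 158379534 to 158379666, both in the intron between exons 3 and 4 of its longest transcript. GENCODE calls the gene protein coding, with a coding length of 261 bases, while the RefSeq table for the same assembly calls it long noncoding RNA. Of the 51 sites, 5 lay in exon 2 (2 in the annotated 5' UTR and 3 in the coding sequence) and 46 in exon 5, which GENCODE counts as 3' UTR. Exon 5 makes up 88.8% of the 5864 bases of that spliced transcript. None of the 51 sites lay in a snoRNA (0 of 51) or in exons 1, 3 or 4. The table has no expression values, so whether the reads came from neurons was not tested. The series' design text describes nuclei sorted with the neuronal marker NeuN, while the sample protocols describe dissociated whole cells and mention no sort. Sites were listed for 4 of 6 neuronal marker genes, 1 of 4 oligodendrocyte markers and 0 of 4 astrocyte markers, 0 of 3 microglial markers and 0 of 2 endothelial markers. Of all 55341 annotated genes searched, 1.41% had a listed site.

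The windows below show the sites that carry the main patterns, as 25 bases of the longest transcript on the plus strand, 5′ to 3′, from GENCODE transcripts. Capitals mark 5 bases, of which the fourth is the edited C. The site named first had the highest young mean, and its C lies in a DRACH sequence.
Site 158381989, chr2:158381977-158382001: tacctgcaaGGACCccccacaatgg
A pair of exon 2 sites had 2 of the 5 largest increases in mean C-to-U, in points.
Site 158376228, chr2:158376216-158376240: aggccctctTGACAccaaggatgac
Site 158376240, chr2:158376228-158376252: caccaaggaTGACGacgcaaaacct
The next pair lies in a run of A and had the highest shares of methylated aged cells.
Site 158381590, chr2:158381578-158381602: aaataaacaAAACAaaacaaaaaat
Site 158381595, chr2:158381583-158381607: aacaaaacaAAACAaaaaataaata
The following sites belong to a run of 7 neighbouring sites that all had a lower share in aged cells.
Site 158385015, chr2:158385003-158385027: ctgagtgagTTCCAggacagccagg
Site 158385020, chr2:158385008-158385032: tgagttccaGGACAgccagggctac
Site 158385167, chr2:158385155-158385179: atatatttaAAACAaaaacaaaacc
Site 158385179, chr2:158385167-158385191: caaaaacaaAACCAaaaacccacaa
The last pair had the highest C-to-U within methylated young cells, and neither C lies in DRACH.
Site 158385385, chr2:158385373-158385397: atcaagaggAGACGtcccaagagga
Site 158385406, chr2:158385394-158385418: aggacaaggAAGCCaataacgtgga

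Each site carries 3 quantities per age. The share is the percent of cells with C-to-U at the site, out of 2623 young or 846 aged cells. The second is the C-to-U fraction within those methylated cells, computed here as the third divided by the share. The third is the deposited average C-to-U, read here as a mean over all cells. A cell that has no read at the site is counted as unmethylated, so fewer methylated cells and less Snhg11 RNA per cell cannot be told apart. Nor can a higher share beside a lower within-cell fraction be told apart from more reads per cell. Values per library or mouse and read depths are not in the table, so no value has a replicate error. Shares carry exact binomial (Clopper-Pearson) 95% intervals over cells, which cover counting error only. Intervals of a percent of sites or sequences take these as independent, though close sites can share reads. Sites entered the table for a difference between the ages, so the directions below are a description with no test.

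At most Snhg11 sites the share of methylated cells was higher in aged cells and C-to-U within methylated cells was lower. The proportions were near those of all listed sites. The share was higher in aged cells at 41 of 51 sites, against 75.4% of all listed sites. The median share was 1.49% in young against 3.55% in aged cells, and the medians over all listed sites were 1.14% and 2.48%. Within methylated cells, C-to-U was the higher in aged ones at 13 of 51 sites, against 31.9% of the listed sites with a methylated aged cell. Its median was 6.65% in young and 1.52% in aged cells at Snhg11, against 18.0% and 7.22% over all listed sites. As a mean over sites weighted by methylated cells, the within-cell fraction at Snhg11 was 6.79% in young against 4.54% in aged cells, a smaller difference than between the medians. Both directions met at 33 of the 51 sites, where the share was higher and the within-cell fraction lower, a combination found at 54.0% of listed sites.

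The intervals of the 2 ages lay apart at 34 of the 51 sites by share, 25 with the higher share in aged cells and 9 with the lower. The same held for 47.4% and 15.1% of all listed sites. At the remaining 17 sites the intervals overlapped.

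**Figure D1:**
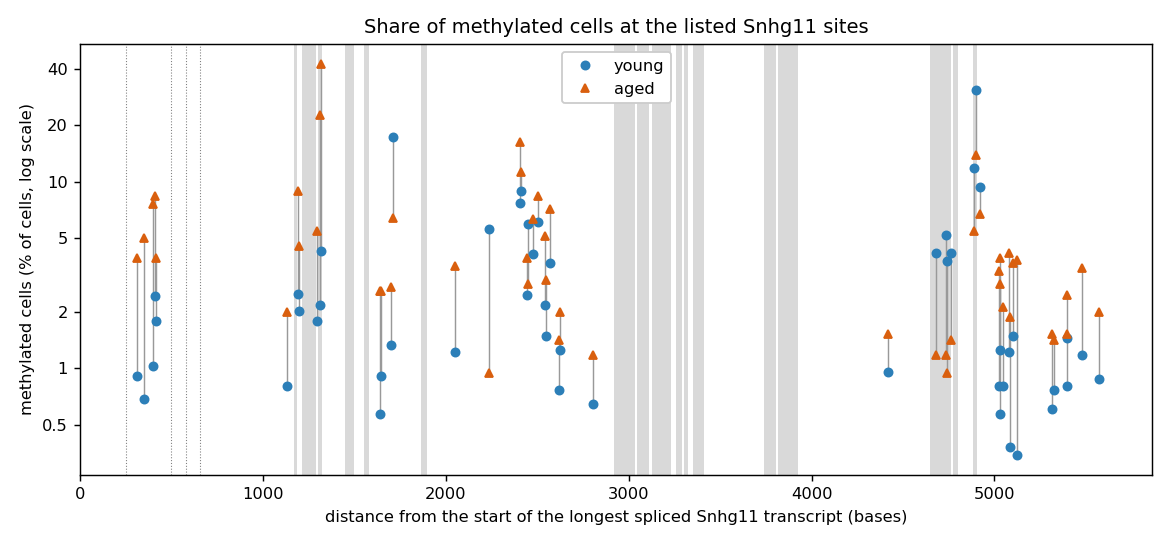
Share of methylated cells (log axis, percent of 2623 young or 846 aged cells) against distance from the start of the longest spliced Snhg11 transcript. Circles are young and triangles aged cells, a line joins the values of 1 site, dotted lines are exon borders, and grey bands are stretches whose 21-base windows occur in at least 5 other genes. Triangles sit above circles at 41 of 51 sites, and the 7 neighbouring sites near the right-hand bands show the reverse.

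The mean over all cells took either direction. It was higher in aged cells at 20 of 51 sites, against 41.5% of all listed sites. A lower mean beside a higher share was found at 23 sites (35.3% of all listed sites), and a higher mean beside a lower share at 2 (27 of 2055 listed sites). The log2 ratio of means, aged over young, ran from -3.73 at 158385385 to 2.82 at 158382852. Site 158381414 had the ratio nearest the table's limit, at 0.58, and site 158385366 the fewest methylated cells, 26 over both ages, where the table holds no site under 25.

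A single site held much of the young signal. Site 158381989, in exon 5, had a young mean C-to-U of 3.18% and an aged mean of 0.948%. Its share was 17.2% (15.8 to 18.7) of young against 6.38% (4.83 to 8.25) of aged cells. The intervals did not overlap. Within methylated cells the fraction was close at both ages, 18.4% in young and 14.8% in aged cells, so the lower share made up most of the lower mean. Added over all 51 sites, mean C-to-U was 11.9 points in young and 12.4 points in aged cells, a ratio of 1.04, and this site gave 26.7% of the young and 7.65% of the aged sum. Without it the sums were 8.72 and 11.4 points, a ratio of 1.31. This site was picked for its young mean, so leaving it out raises the ratio by that choice. The aged sum was also held by few sites. The 5 sites with the largest aged mean gave 55.4% of the aged and 39.1% of the young sum. The 5 with the largest young mean gave 51.9% of the young and 23.5% of the aged sum.

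The other large decreases in mean were of 2 kinds. At 158385179 the mean went from 1.41% to 0.548% with the share, 30.8% (29.0 to 32.6) of young against 13.9% (11.7 to 16.5) of aged cells, while the within-cell fraction was 4.57% and 3.93%. Site 158382515 went from 0.466% to 0.122%, with 146 young and 8 aged cells methylated, and its within-cell fraction was 8.37% in young and 12.9% in aged cells. At both of these sites the share was lower in aged cells.
The sites 158385385 and 158385327 showed the other kind. The mean at 158385385 went from 0.491% to 0.0370%, although the share was higher, 1.49% (1.06 to 2.03) of young against 3.66% (2.50 to 5.16) of aged cells. The within-cell fraction there was 33.0% in young against 1.01% in aged cells, 32.7-fold lower. At 158385327 it went from 30.1% to 1.04%, with 21 young and 18 aged methylated cells.

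The exon 2 sites had more methylated aged cells at 5 of 5 sites, with intervals apart at each. At 158376240, in the coding sequence, the share was 2.44% (1.88 to 3.11) of young against 8.39% (6.61 to 10.5) of aged cells. Its C-to-U within methylated cells was also higher in aged cells, 13.9% against 27.4%, and the mean went from 0.340% to 2.30%, the largest increase in points among the 51. At 158376228 the share was 1.03% and 7.57% and the within-cell fraction 13.9% and 11.5%, so the mean went from 0.143% to 0.867%.
The other exon 2 sites had smaller differences in mean. Site 158376243, 3 bases from 158376240, had a young mean of 0.151% and an aged mean of 0.0540%, with a within-cell fraction of 8.45% and 1.38%. Site 158376137, the first of the 51 in the gene, had a share of 0.915% and 3.90%, and 158376175 a share of 0.686% and 4.96%. Neighbouring bases in this exon thus went in opposite directions by mean and the same direction by share.

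Of the 5 largest increases in mean (in points), the 3 outside exon 2 lay in exon 5. Site 158382852 went from 0.180% to 1.27%, with shares of 3.66% and 7.09% and within-cell fractions of 4.93% and 17.9%. At 158382694 the mean was 0.319% in young and 1.09% in aged cells, with shares of 8.88% (7.82 to 10.0) and 11.2% (9.18 to 13.6), whose intervals overlapped. Its within-cell fraction was 3.59% and 9.68%. Site 158385204 went from 0.637% to 1.26% although its share was 9.30% (8.22 to 10.5) in young and 6.74% (5.14 to 8.64) in aged cells, since the within-cell fraction was 6.84% and 18.7%. The within-cell fraction was higher in aged cells at 4 of these 5 sites, which were picked for their mean.

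**Figure D2:**
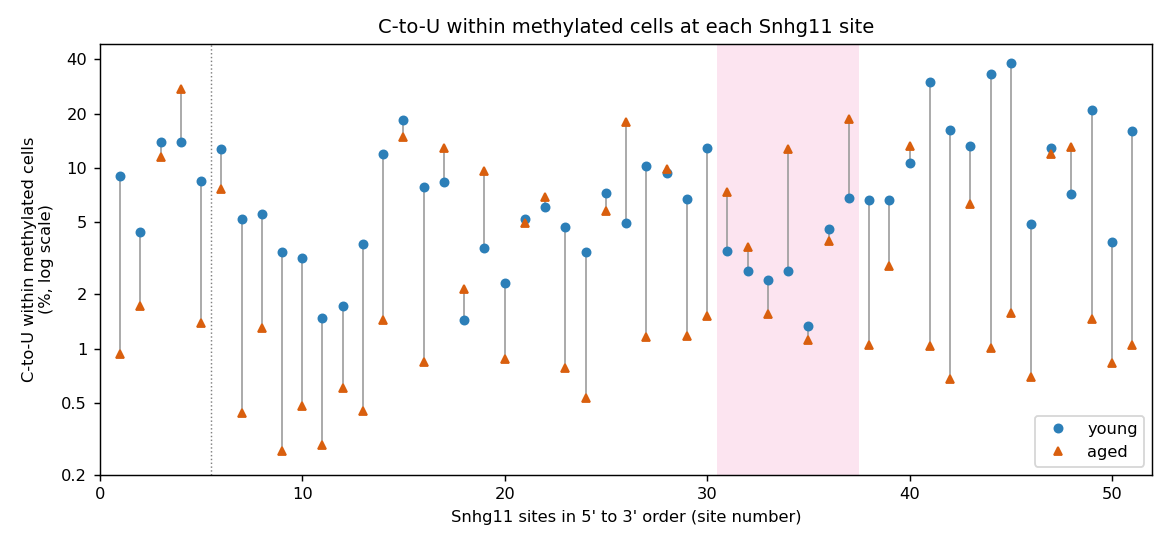
C-to-U within methylated cells (percent, log axis) at the 51 Snhg11 sites in 5' to 3' order, with circles for young and triangles for aged cells. The dotted line separates the 5 sites of exon 2 from the 46 of exon 5, and the shaded band marks the run of 7 sites with lower shares in aged cells. Triangles lie under circles at 38 of 51 sites.

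The within-cell fraction was under 2% at 29 of 51 sites in aged cells and at 4 of 51 in young cells, against 34.9% of the listed sites with a methylated aged cell and 7.15% of all listed sites. It was under 10% at 41 sites in aged and 35 in young cells, against 54.3% and 31.2% of the listed sites. The lowest aged values were 0.269% at 158381577, 0.294% at 158381595 and 0.438% at 158381473, and these 3 sites had shares of 5.44%, 42.8% and 8.87% of aged cells. Fractions this low were not compared with the error of reads. The lowest young values were 1.33% at 158385167, 1.45% at 158382684 and 1.47% at 158381595, all in A-rich sequence. The highest young values were 37.9% at 158385406, 33.0% at 158385385 and 30.1% at 158385327, and their aged values were 1.57%, 1.01% and 1.04%. At 158385406 the young value rests on 9 methylated cells, and the aged value on 32.

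The widest gain in methylated cells, in percentage points, was at 2 sites 5 bases apart, shown above, in a run of A. At 158381595 the share was 4.27% (3.53 to 5.12) of young against 42.8% (39.4 to 46.2) of aged cells, 112 and 362 cells, a 10.0-fold higher share. By fold the share at 158385406 differed more, 11.0-fold, going from 0.343% to 3.78%. The neighbour of 158381595, site 158381590, went from 2.17% (1.65 to 2.81) to 22.6% (19.8 to 25.5). The mean at 158381595 went only from 0.0628% to 0.126%, because the within-cell fraction was 1.47% in young against 0.294% in aged cells. Whether so low an aged fraction exceeds read error was not tested, so the gain in methylated cells carries this limit. The lowest adjusted p of the 51 sites in the authors' deposited table, 1.00e-172, was that of 158381595, and the highest, 0.0479, that of 158382725.

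Both sites have 17 A among the 20 bases around the edited C. Site 158381590 is the last base of a shorter annotated transcript, which undergoes nonsense-mediated decay by its GENCODE class. The hexamer AATAAA, a common poly(A) signal, ends 6 bases before that site and 11 before the other. On the transcript strand AATAAA ends within 40 bases before 4 of 51 sites and before 2.68% of the positions of the longest transcript. The role of this sequence in the counts of methylated cells was not tested.

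Counting sites with at least 12 A among the 20 flanking bases as A-rich, 6 of 51 Snhg11 sites were A-rich (11.8%), against 24.7% of the 2022 listed sites with a known 21-base window. Their median share was 8.50% in young and 15.1% in aged cells, and the median of the other 45 Snhg11 sites was 1.26% and 2.96%. Over all genes the A-rich sites had a median share of 1.18% in young and 2.25% in aged cells. Of the 6, 3 had a higher and 3 a lower share in aged cells, while 71.9% of the 499 A-rich sites over all genes had a higher one. Site 158382684, with 15 flanking A, had a share of 7.70% (6.71 to 8.79) in young and 16.3% (13.9 to 19.0) in aged cells.

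The run of lower shares lay further downstream in exon 5. From 158384963 to 158385204, a span of 242 bases, all 7 listed sites had a lower share in aged cells, while 3 of the other 44 Snhg11 sites did (24.6% of all listed sites). This run, and its sites named here outside the naming rule, were picked after their values were seen, so it has no test. The 4 sites at the start of the run, 158384963, 158385015, 158385020 and 158385042, had shares of 4.16%, 5.15%, 3.77% and 4.16% in young cells and 1.18%, 1.18%, 0.946% and 1.42% in aged cells. The aged values rest on 8 to 12 cells each. At 158385167 the share was 11.8% (10.6 to 13.1) of young against 5.44% (4.01 to 7.19) of aged cells. The intervals lay apart at 6 of the 7 sites, all but 158385204. On either side the shares were higher in aged cells, at 158384700 upstream (0.953% and 1.54%) and at all 14 sites downstream, from 158385304 to 158385850. The intervals overlapped at 158384700 and at 5 of the 14.

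**Figure D3:**
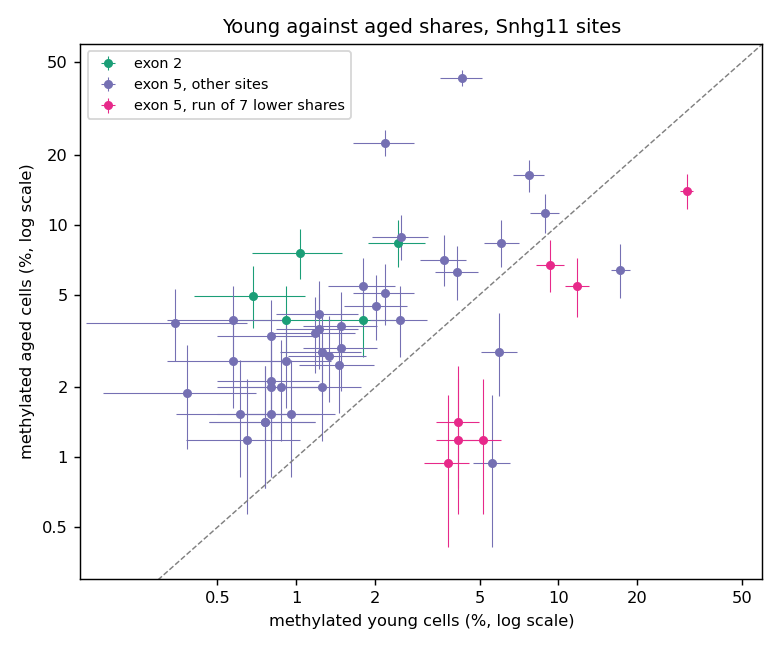
Share of methylated aged cells against methylated young cells (both percent, log axes) at each Snhg11 site, with 95% Clopper-Pearson intervals over cells as bars and the dashed line where both ages are equal. The 5 exon 2 sites lie above the line, and the 7 sites of the run lie under it together with 3 other sites of exon 5.

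The same stretch holds sequence that is not particular to the gene. The 21 bases around 158384963, 158385015 and 158385020 occur, on either strand, in transcripts of 48, 1014 and 1479 other annotated genes among 55341 searched. Windows in at least 5 other genes were found at 3 of 51 Snhg11 sites (5.88%) and at 3.61% of the 2022 listed sites, and all 3 Snhg11 sites lie in this run. Reads from such bases can belong to other transcripts. How the authors handled reads with several matches is not given in the sources used here, so the assignment of these 3 sites to Snhg11 is in doubt, and the part of this in the lower shares was not tested. The window of 158385042 occurs in no other annotated gene, and neither do those of the 3 A-rich sites that complete the run. Even so, 158385042 lies at the edge of bases covered by recurring windows (158385002 to 158385043), and 158385167 and 158385179 lie in a short covered stretch (158385163 to 158385185) whose windows occur in up to 9 other genes. In all, 8 of the 51 sites lie on covered bases, among them the pair 158381590 and 158381595, where a window occurs in up to 17 other genes.

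Recurring sequence covers 19.0% of exon 5. The longest part of exon 5 with no listed site, 1615 bases between 158383084 and 158384700, was recurring for 36.8% of its bases, against 11.1% of the rest of exon 5. Of the 46 exon 5 sites, 8 lay on recurring bases (17.4%), close to the 19.0% of exon 5 that is recurring. The part of 1615 bases was picked because it has no listed site. By that choice none of its 59 C after an A is listed (0 of 59), and it holds 23 DRACH sequences. In the rest of exon 5, 27 of 200 C after an A were listed. Given that choice, these counts and the percents of recurring bases are descriptions with no test.

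**Figure D4:**
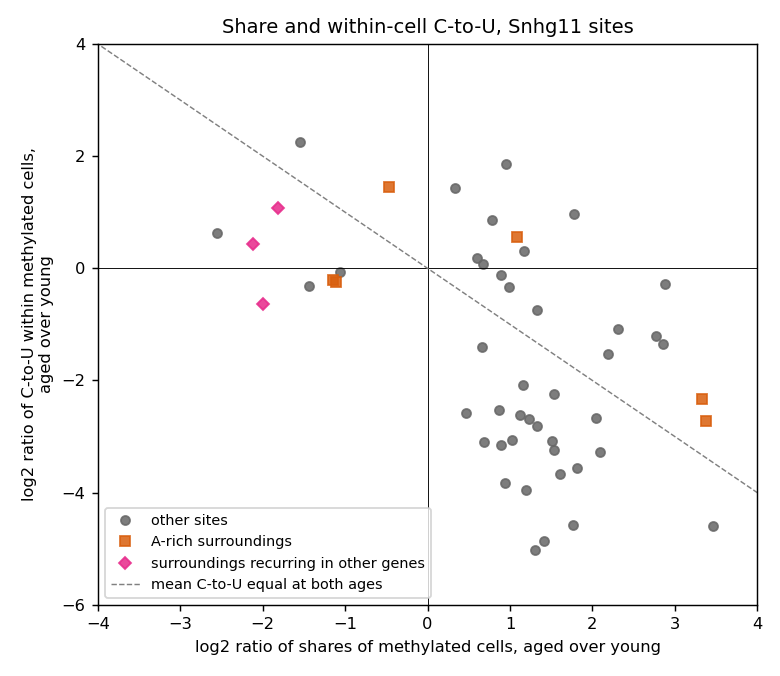
Log2 ratio of C-to-U within methylated cells against the log2 ratio of the share of methylated cells, both aged over young, at the 51 Snhg11 sites. Squares are sites with at least 12 A among 20 flanking bases, diamonds are sites whose 21-base window occurs in at least 5 other genes, and on the dashed line the mean would be equal at both ages. Most points (33 of 51) lie at the lower right, and no point lies close to the dashed line because listed sites have absolute log2 ratios of means from 0.58 up.

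The sequence around the sites was not part of the rule that chose them. The edited C followed an A at 32 of 51 Snhg11 sites, or 62.7% (48.1 to 75.9), against 75.3% of the listed sites with a window and 20.5% (18.3 to 22.8) of the 1305 other C of the longest transcript. At the other 19 Snhg11 sites no A directly precedes the edited C. Their cells are called methylated as in the deposited columns, and whether these edits mark m6A was not tested. DRACH on the transcript strand held 22 of 51 sites (43.1%), against 44.6% of the listed sites with a window. That transcript has 130 DRACH sequences, and 22 of them (16.9%, 10.9 to 24.5) had a listed site, while 51 of its 1356 C (3.76%) did. Of its 11 GGACT sequences, the form of DRACH best known for m6A, 4 had a listed site.

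The DRACH sites and the others differed in how they were split by mean. The mean was higher in aged cells at 12 of 22 DRACH sites and 8 of 29 other sites, with a median log2 ratio of 0.62 and -1.47. The share was higher at 16 of 22 and 25 of 29. Over all listed sites the mean was higher in aged cells at 41.5% and the share at 75.4%. The median within-cell fraction went from 6.09% to 3.55% at DRACH sites and from 6.74% to 1.16% at the others. These splits were chosen after values were seen and were not tested. The same split over all listed sites is not given here, so whether it is particular to Snhg11 was not tested. The first site shown above, with GGAC at its edited C, had 17.2% of young cells methylated, and the other 6 GGAC sites had young shares of 0.915% to 5.57%.

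Close neighbours can lie on the same reads. Of the 51 sites, 29 lay within 10 bases of another, in 14 runs of at most 3 sites. Among the 15 pairs of next neighbours up to 10 bases apart, 13 had the same direction by share (86.7%) and 7 by mean (46.7%). Over all genes the direction was the same in 303 of 319 such pairs by share and in 74.6% by mean. The pair 158381983 and 158381989, 6 bases apart, went in opposite directions by share, with 1.33% (0.931 to 1.85) of young against 2.72% (1.73 to 4.05) of aged cells at the first site, whose intervals overlapped, and the lower aged share given above at the other. At 158382725 and 158382729, 4 bases apart, the shares were 2.48% and 3.90% at the first and 5.95% and 2.84% at the other.

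Across the 51 sites the order of shares was only partly kept between the ages, with a Spearman rho of 0.43 and a Pearson r of log2 shares of 0.42. For the within-cell fraction the values were 0.29 and 0.23. In young cells sites with a larger share had a lower within-cell fraction (rho -0.44), and in aged cells the rho was -0.14. The within-cell fraction was computed by dividing by the share, so a negative rho between them is partly built in. Sites were also listed for a difference in mean between the ages, so the rho between ages holds for selected sites only. These are descriptions across sites, which share cells and, where close, reads.

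Among the 27 genes with at least 10 listed sites, those most like Snhg11 included Pnisr, Meg3, Ttc3 and Srrm2. Likeness was the distance over 4 log2 medians, of share and within-cell fraction at each age, and the distances ran from 0.946 for Pnisr to 1.08 for Srrm2. Pnisr and Srrm2 encode nuclear proteins rich in arginine and serine, and Meg3 is an imprinted noncoding RNA. Their median within-cell fraction in aged cells was 1.82% in Pnisr, 0.988% in Meg3, 0.954% in Ttc3 and 1.22% in Srrm2, beside the 1.52% of Snhg11, and the distance that chose these genes includes this median. Malat1, a nuclear noncoding RNA, had larger median shares (5.60% and 10.9%) and lower within-cell fractions (2.78% and 0.617%). Snhg14, another snoRNA host, differed in the other way, with within-cell medians of 28.7% and 19.8%, and had a higher mean at 16 of 16 sites where Snhg11 had 20 of 51.

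Of 42 genes taken as snoRNA hosts, 7 had listed sites, 240 in all, against 1.41% of all annotated genes. Besides Snhg11, Snhg14, Meg3 and Ttc3 these were Snhg4 with 1 site, Rian with 8 and the chaperone gene Hspa8 with 2. The share was higher in aged cells at 1 of 1 site in Snhg4, 7 of 8 in Rian and 2 of 2 in Hspa8, and the mean at 1, 0 and 2 of them. Rian, an imprinted noncoding RNA that hosts snoRNAs, had a median within-cell fraction of 22.6% in young and 3.32% in aged cells. Of 25 long noncoding RNAs of neurons and nuclei, 10 had listed sites (again against 1.41% of annotated genes), 341 in all, with Snhg11 next by number after Meg3 with 144 and Malat1 with 87. Both lists include Snhg11 and were chosen with earlier results known, and the 1.41% covers annotated genes whether expressed or not. These counts are therefore no test.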

How the data were processed

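Per the submitters' processing notes the reads were aligned with STAR 2.7.5 to mm10, and C-to-U sites were found with the Bullseye pipeline according to the design text of the series. The sample protocols describe whole cells and polyA RNA, the design text sorted nuclei and total RNA. The authors deposited 1 table. Its columns, per the file headers, are the percent of cells methylated at a site, the C-to-U fraction over all cells (printed as percent), the count of methylated cells, the p-value and adjusted p-value, and a log2 ratio of young over aged means, whose sign was turned here. The fraction within methylated cells was computed as the average C-to-U divided by the share. The 3 columns headed YoungC2Umecells, OldC2Umecells and totalmecells were not used, so the computed fraction was not compared with them. The authors' test is not given in the sources used here.

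Positions were read as counted from 0, which put a C at 51 of 51 Snhg11 sites, against 8 when read as counted from 1, and are printed counting from 1. Sites were placed on GENCODE M21 (GRCm38) transcripts with Python 3.11.15 and pandas 2.3.3. Clopper-Pearson intervals came from scipy 1.17.1, and the functions were tested on simulated data. Each 21-base window was searched in all GENCODE transcripts on both strands. The sites named are the 5 largest increases and decreases in mean (in points), the 5 highest shares and the 3 highest and lowest within-cell fractions at each age, the first and last site, those outside the 3' UTR and the lowest and highest adjusted p. Other sites named were chosen after their values were seen. Gene, lists and rules were chosen with earlier results of these data known. Alternatives were stricter limits on the authors' adjusted p and on cells, 1 site per run of neighbours, sites after an A only, the other reading of positions and a weighted mean. Of the 5 genes most like Snhg11, 1 is not reported here.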

Additional observations from a re-analysis of the deposited data

How the results depend on the processing

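The percent of Snhg11 sites with a higher mean in aged cells was 39.2%, with a higher share 80.4% and with a higher within-cell fraction 25.5%. Of 50 values recomputed under the alternatives, 44 stayed within the 95% interval of the reported value. Those intervals take the sites as independent, and most alternatives are subsets of the same sites, so this is a weak check. Without A-rich and recurring windows, an alternative added once values were seen, 90.5% of 42 sites had a higher share. Read as counted from 1, positions gave 5.88% of sites with C after an A. With at least 50 methylated cells the median share was 2.46% in young and 4.31% in aged cells, and with an adjusted p under 0.001 the aged median was 4.49%. Weighted by methylated cells, the mean within-cell fraction was 6.79% in young and 4.54% in aged cells, against medians of 6.65% and 1.52%, so the difference between the ages was smaller. The number of cells limits the rest: the aged share rests on 8 to 362 cells a site, and read depth was not analysed here. No paired analysis was possible because the table holds 1 pooled value per age and site.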

Other observations

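The last listed site, 158385850, had C-to-U within methylated cells of 16.1% in young and 1.04% in aged cells and a share of 0.877% and 2.01%. From 158385304 to this site the median within-cell fraction over 14 sites was 13.1% in young against 1.25% in aged cells, and the 14 sites from 158382328 to 158383084 had medians of 5.62% and 3.55%. The log2 ratio of within-cell fractions had a median of -2.74 in the first set and -0.20 in the other. The sets were chosen after their values were seen and the difference was not tested.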
